A study of Mus musculus with 4 samples.

Results

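The nuclear genes for proteins of the mitochondrial ribosome were followed in heart RNA of WT mice and of mice with the genotype PRMT1-cKO, in which PRMT1 is deleted in cardiomyocytes. Members were the rows of the gene table with a name made of Mrpl or Mrps, a number and at most 1 letter, and with at least 2 annotated exons. There were 77 of them among 43346 rows, 48 named for the large subunit (Mrpl) and 29 named for the small subunit (Mrps). Of the 81 rows that start with Mrpl or Mrps, the 4 left out are the pseudogenes Mrpl23-ps1, Mrpl48-ps, Mrps36-ps1 and Mrps36-ps2, for which the table lists no exon. Each group had 2 hearts from C57BL/6 mice of 6 weeks, 1 library per heart, made from total cardiac RNA after removal of ribosomal RNA. The labels do not name the Cre driver, and the heart keeps cells other than cardiomyocytes that still carry the gene. PRMT1 is an enzyme that places methyl groups on arginine residues of many proteins, RNA-binding proteins among them.

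Mitochondria translate the few proteins that their own genome encodes, all of them subunits of the respiratory chain and of ATP synthase, on a ribosome of their own. Its ribosomal RNAs come from the mitochondrial genome, while every one of its proteins is encoded in the nucleus, made in the cytosol and imported. The small subunit reads the mRNA, the large subunit joins the amino acids and sits at the inner membrane, into which the new proteins are inserted. Heart muscle depends strongly on this system, and in humans inherited defects of MRPL3 and MRPL44 are known with cardiomyopathy.

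The table gives 2 read counts per gene. Exon reads are almost all reads across an exon junction, and 29 of 2605955 fell elsewhere. Gene reads are exon reads plus reads counted as intronic, and they were the main measure. Libraries held 25509854 and 21701967 gene reads in WT against 18291730 and 18674587 in PRMT1-cKO, and between 544891 and 764806 exon reads. The gene mt-Rnr2, for the 16S RNA of this ribosome, took 64.9% and 65.8% of the gene reads in WT against 52.8% and 51.2% in PRMT1-cKO, and its part in the results below was not tested beyond the scaling named there. Levels are given as normalised CPM, reads scaled to a common library size by TMM, separately for gene reads and exon reads. Where a library shows 0 exon reads, as many as 3 may have been missed, a floor of 3.92 to 5.51 CPM before that scaling that covers counting error only. The targeted gene Prmt1 had 33 and 18 gene reads in WT against 33 and 44 in PRMT1-cKO, none of them exon reads, so these reads do not check the deletion and the genotype rests on the labels.

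Summed over all 77 members, with no filter, the RNA of the mitochondrial ribosome was lower in both PRMT1-cKO hearts than in both WT hearts. Exon reads summed to 5680 and 5596 CPM in WT replicates 1 and 2 against 2671 and 2593 CPM in PRMT1-cKO replicates 1 and 2. The PRMT1-cKO mean was 46.7% of the WT mean in exon reads. Gene reads summed to 326 and 330.5 CPM in WT against 210.3 and 194 CPM in PRMT1-cKO, which is 61.6% of the WT mean. The groups did not overlap in either measure, and the difference between groups was many times the difference between hearts of a group. These sums rest on 3513 and 3005 exon reads in WT and on 1976 and 1660 in PRMT1-cKO, and with 2 hearts per group an exact permutation test of a single value cannot go below p = 0.333.

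Of 65 members with enough gene reads to test, 19 fell and 0 rose in PRMT1-cKO (edgeR quasi-likelihood test over 13869 genes, Benjamini-Hochberg adjusted p under 0.05). Among all genes tested 11.2% fell and 11.5% rose, and the members called lower were 29.2% of those tested. The log2 change was below 0 in 61 of the 65, with a median of -0.55 against 0.01 over all genes tested. Both PRMT1-cKO values were below both WT values in 43 of the 65, against 29.0% of all genes tested. Of the 65, 7 did not reach the filter in both PRMT1-cKO libraries, 2 of them called lower. The remaining 12 members had too few reads, among them Mrpl53 and Mrps34 with 0 gene reads in every library. Scaling by library total alone shifted the median of all genes to 0.53, the members' median to -0.05, and the calls to 8 lower and 2 higher. Relative to the median of all genes the members' median was then still lower by about the same amount. Without WT replicate 2 fewer members and fewer genes of the whole table were called, and the members' median was -0.60.

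In exon reads 39 members could be tested, and 24 fell and 0 rose (edgeR over 4756 genes). Among all genes tested in exon reads 18.7% fell and 17.6% rose. The log2 change was below 0 in 38 of the 39, with a median of -0.95 against 0.00 over all genes, and in 35 of the 39 the groups did not overlap and PRMT1-cKO was lower, against 34.2% of all genes tested. Of the 39 members, 10 did not reach the filter's 15.4 CPM in both PRMT1-cKO libraries and so passed through their WT level, 7 of them called lower, which is why the counts over tested members are given as a description. Without any filter on reads 23 of 69 members fell and 0 rose, with a median of -0.79. In that fit 1790 genes of the whole table were called in either direction, and the median of all genes was 0.04. Exon reads had the lower log2 change in 32 of the 38 members tested in both measures. In both measures 16 members fell, 13 of the large subunit and 3 of the small, and 27 fell in at least 1 of them, 17 large and 10 small. The matching shares over all genes were not computed, and gene reads contain the exon reads, so these counts are a description. By the deposited table of the authors, 17 members had a corrected p-value under 0.05, all of them lower, and all 17 are among the 19 called here in gene reads.

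**Figure D1:**
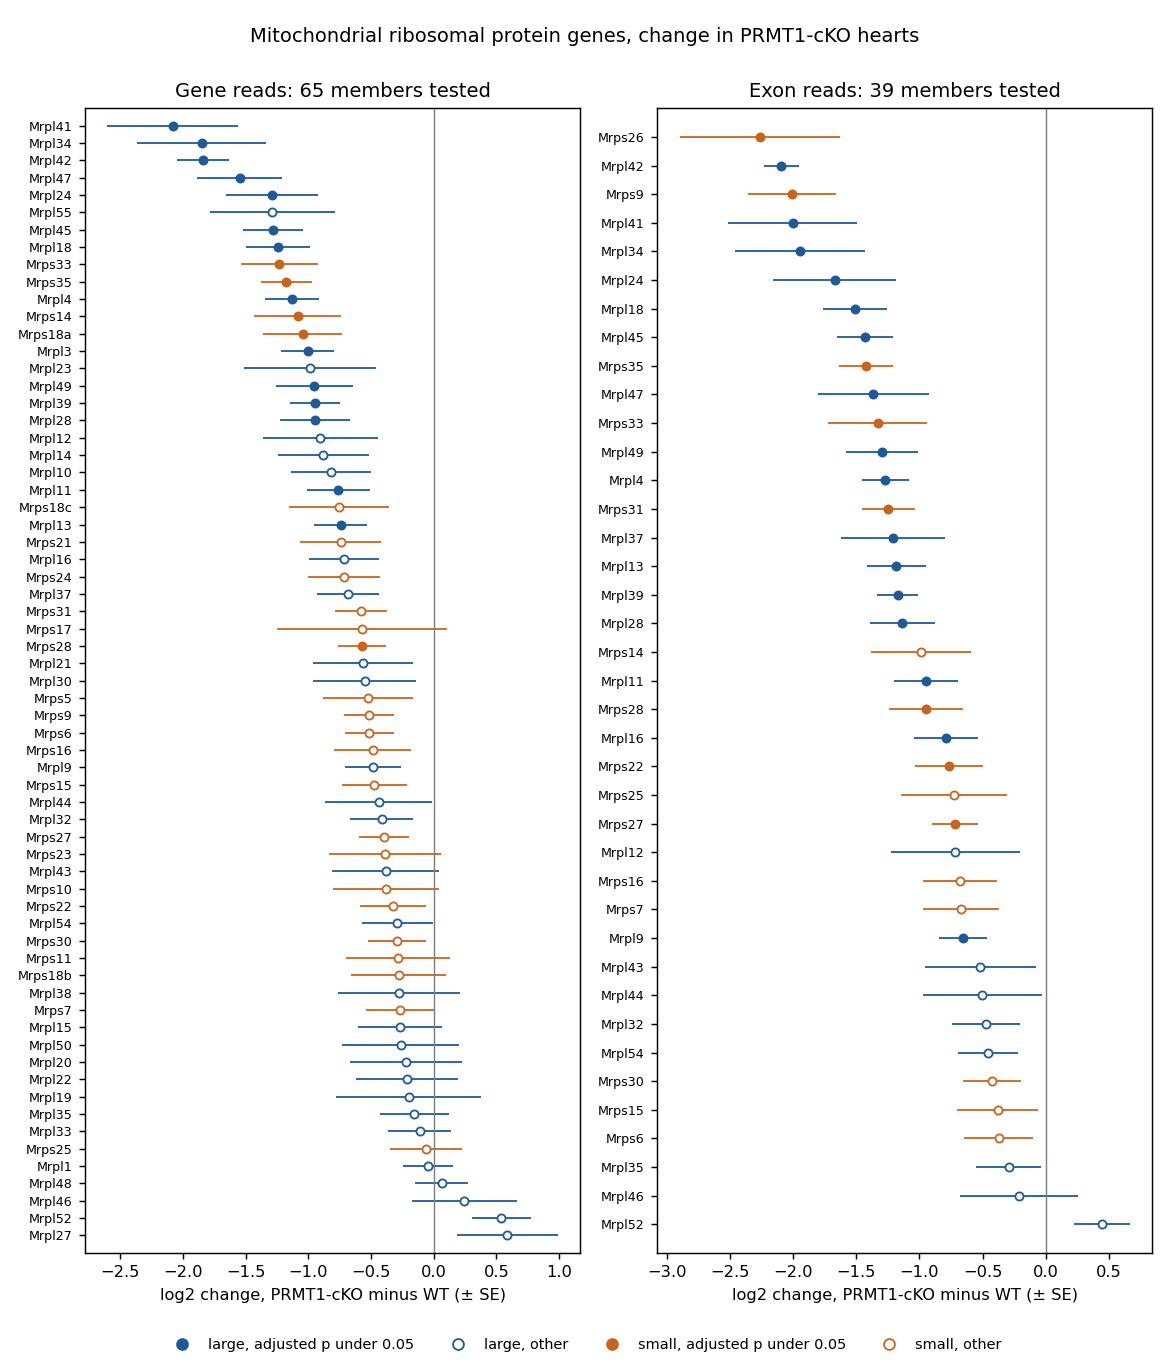
Each point is the log2 change, PRMT1-cKO minus WT, of 1 tested member with its standard error (n = 2 hearts per group), in gene reads on the left and exon reads on the right, blue for the large and orange for the small subunit, filled where the edgeR adjusted p was under 0.05. Of the 65 points for gene reads 61 lie left of 0, and of the 39 for exon reads 38 do.

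Other cell types differed between these hearts too. The 8 cardiomyocyte markers summed to 3661 and 3592 CPM of gene reads in WT against 1401 and 2215 in PRMT1-cKO, and 7 of the 8 fell. The 6 fibroblast markers summed to 115 and 161 CPM in WT against 670 and 351 in PRMT1-cKO, and 6 of 6 rose. The leukocyte markers summed to 20.4 and 24.8 CPM in WT against 63.4 and 48.4 in PRMT1-cKO, with 5 of 5 tested higher. Endothelial markers summed to 180.1 and 180.0 CPM against 137 and 149 with 2 of 6 lower, mural markers to 122 and 154 against 114 and 108 with 1 of 5 higher (in exon reads 2695 and 3180 against 1971 and 2076, with 3 of 5 lower), and adipocyte markers to 1.29 and 1.75 against 2.21 and 2.22 with 0 of 3 tested called. Among red cell markers Hba-a1, Hba-a2 and Hbb-bt were at 0 in all libraries, and Alas2 was the 1 of 5 that could be tested and rose. In whole-heart RNA fewer cardiomyocytes and less RNA per cardiomyocyte cannot be told apart, and the part of cell makeup in the members' changes was not tested.

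Mrpl42 had the most exon reads of any member in each heart, and it fell steeply. Mrpl42 (ENSMUSG00000062981, chromosome 10, 95480806 to 95501927, minus strand, GRCm38) encodes a protein of the mitochondrial ribosome with no counterpart in bacteria, at one time also listed as a small subunit protein under the name MRPS32. Its exon reads were 1395 and 1294 CPM in the WT hearts against 304 and 326 CPM in the PRMT1-cKO hearts, from 863, 695, 225 and 209 reads. The groups lie far apart, and PRMT1-cKO was at 23.4% of WT (log2 change -2.09 ± 0.14, SE, n = 2 per group, edgeR adjusted p = 1.21e-08). Gene reads of Mrpl42 were 43.4 and 45.7 CPM in WT against 13.6 and 11.4 CPM in PRMT1-cKO, a log2 change of -1.84 ± 0.21 (edgeR adjusted p = 2.53e-06). Its intron reads fell as well, by 0.98 on the log2 scale. The fall passed in all 12 alternatives for gene reads and all 11 for exon reads. In the authors' deposited RPKM, exon reads per kilobase of exon, Mrpl42 stood at 50.8 and 48.1 in WT, and the next member, Mrpl52, at 6.09 and 5.48.

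Of the large subunit proteins known from the exit tunnel and its membrane side, a grouping made after the values were seen, some fell and others did not pass. Mrpl4, the relative of bacterial uL4 that lines the tunnel through which the new protein leaves, had 271.6 and 271.9 CPM of exon reads in WT against 107 and 119 CPM in PRMT1-cKO. Its WT hearts were almost equal and both PRMT1-cKO hearts were far below them, at a mean of 41.5% of WT (log2 change -1.27 ± 0.19, edgeR adjusted p = 6.16e-05). In gene reads Mrpl4 had a log2 change of -1.13 ± 0.21 (edgeR adjusted p = 0.000560). Mrpl45, at the tunnel exit where the ribosome meets the inner membrane, had 173 and 181 CPM of exon reads in WT against 62.2 and 68.7 in PRMT1-cKO. That is a log2 change of -1.43 ± 0.22 (edgeR adjusted p = 0.000112), with -1.28 ± 0.24 in gene reads (edgeR adjusted p = 0.000506), and a pseudogene on the other strand overlaps the gene. Mrpl47, the relative of uL29 near the tunnel exit, had 34.0 and 72.6 CPM of exon reads in WT against 18.9 and 21.9 in PRMT1-cKO. WT replicate 2 was high, and without it Mrpl47 did not pass in exon reads (edgeR adjusted p = 0.338) or gene reads (0.0797). Mrpl47 also shares its locus with Actl6a and Ndufb5 on the other strand, and Ndufb5 is a respiratory chain gene, so its reads are uncertain. Mrpl22 and Mrpl23, relatives of uL22 and uL23 at the same exit, had too few exon reads to test and did not pass in gene reads. Their log2 changes were -0.21 ± 0.40 (edgeR adjusted p = 0.770) and -0.99 ± 0.52 (0.202).

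Other members with relatives in the bacterial large subunit fell too. Mrpl18, the relative of the protein that holds the 5S RNA in bacteria, had 126 and 140 CPM of exon reads in WT against 44.6 and 48.4 in PRMT1-cKO (log2 change -1.51 ± 0.25, edgeR adjusted p = 0.000232). All alternatives kept this call in both measures, and the gene overlaps Tcp1 on the other strand. Mrpl3, near the centre where peptide bonds form, had 10.4 and 8.48 CPM of gene reads in WT against 4.61 and 4.81 in PRMT1-cKO (log2 change -1.01 ± 0.21, edgeR adjusted p = 0.00141). Mrpl3 had 1 exon read in WT replicate 1, 1 in PRMT1-cKO replicate 2 and 0 in the others, so this fall rests on reads outside annotated junctions. Another gene of the table overlaps Mrpl3, so these reads are uncertain. With scaling by library total alone Mrpl3 was not called (log2 change -0.49, edgeR adjusted p = 0.131). Mrpl9 passed in exon reads only, with 246 and 248 CPM in WT against 177 and 134 in PRMT1-cKO (log2 change -0.66 ± 0.19, edgeR adjusted p = 0.0130). Without PRMT1-cKO replicate 2 the adjusted p of Mrpl9 was 0.0851. Mrpl32, which is known to be cleaved by the m-AAA protease before assembly, had 102 and 98.7 CPM of exon reads in WT against 58.1 and 87.5 in PRMT1-cKO and did not pass (log2 change -0.47 ± 0.27).

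The other large subunit members that fell in both measures were Mrpl11, Mrpl13, Mrpl24, Mrpl28, Mrpl34, Mrpl39, Mrpl41 and Mrpl49, with log2 changes of exon reads between -2.005 for Mrpl41 and -0.95 for Mrpl11. Mrpl39 was the best covered of these, with 386 and 395 CPM in WT against 170.3 and 176.5 in PRMT1-cKO (log2 change -1.17 ± 0.16, edgeR adjusted p = 3.66e-05). Mrpl16 and Mrpl37 fell in exon reads alone. Apart from Mrpl39 these members lost a call in at least 1 measure with a heart left out. Leaving out a heart leaves 1 in its group, so a lost call need not mean a smaller change. Without WT replicate 1 Mrpl11, Mrpl13, Mrpl34 and Mrpl49 lost the call in gene reads and Mrpl11, Mrpl24, Mrpl34 and Mrpl37 in exon reads. Without WT replicate 2 Mrpl13, Mrpl24, Mrpl28, Mrpl34, Mrpl41 and Mrpl49 lost it in gene reads and Mrpl16, Mrpl24, Mrpl34 and Mrpl41 in exon reads. With PRMT1-cKO replicate 2 left out the gene read calls of Mrpl11, Mrpl28 and Mrpl49 and the exon read call of Mrpl24 were lost. With PRMT1-cKO replicate 1 left out the exon read calls of Mrpl34 and Mrpl37 were lost. Mrpl12, of the flexible stalk that recruits translation factors, and Mrpl44, the cardiomyopathy gene named above, did not pass in either measure (exon reads log2 change -0.72 ± 0.51 and -0.50 ± 0.47), and both had at most 15 exon reads in a heart.

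The 4 members with a log2 change of gene reads above 0 were Mrpl27, Mrpl46, Mrpl48 and Mrpl52, and none passed. Mrpl52 was the only one tested with a positive log2 change in exon reads, with 103.5 and 91.2 CPM in WT against 127 and 139 CPM in PRMT1-cKO (log2 change 0.44 ± 0.22, edgeR adjusted p = 0.133). Its groups did not overlap, and the same was true of its gene reads (log2 change 0.54 ± 0.24, edgeR adjusted p = 0.117). Without PRMT1-cKO replicate 2 Mrpl52 passed as higher in gene reads (log2 change 0.70, edgeR adjusted p = 0.0379), and with scaling by library total alone it passed together with Mrpl27. Mrpl52 encodes a large subunit protein with no counterpart in bacteria. Mrpl1 shows a different limit, since its 339, 216, 241 and 358 gene reads included 0 exon reads and its log2 change was -0.05 ± 0.20.

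**Figure D2:**
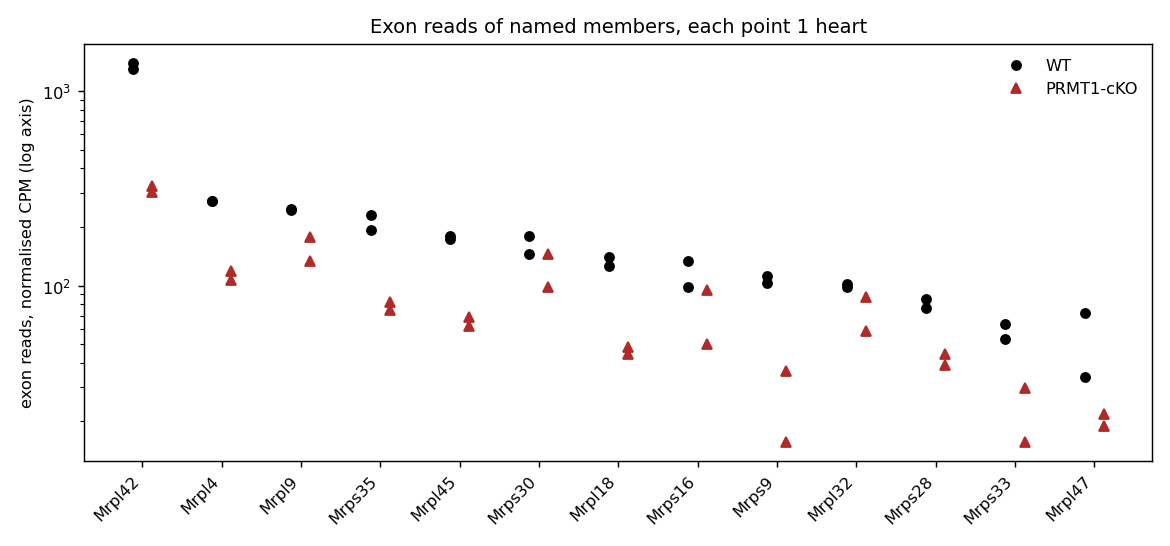
Exon reads in normalised CPM, on a log axis, of the 13 named members that could be tested, each point 1 heart, black circles for WT and red triangles for PRMT1-cKO. Mrpl42 is the highest in every heart, and both PRMT1-cKO hearts are below both WT hearts for each of the 13, for Mrps30 by the smallest margin. Many of the 13 were named for their fall in gene reads or their exon-intron call, so this separation follows in part from the choice. Over all genes tested in exon reads 34.2% showed it, and Mrpl52, which went the other way, is not among the 13.

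In the small subunit Mrps35, Mrps33 and Mrps28 fell in both measures, as did no other member named for it. Mrps35 (ENSMUSG00000040112, chromosome 6, 147042764 to 147070903, plus strand), a small subunit protein without a bacterial counterpart, had 230 and 194 CPM of exon reads in WT against 82.4 and 74.97 in PRMT1-cKO. Its log2 change was -1.43 ± 0.21 in exon reads (edgeR adjusted p = 7.35e-05) and -1.18 ± 0.21 in gene reads (0.000266), and every alternative kept both calls. Mrps33 had 53.4 and 63.3 CPM in WT against 29.7 and 15.6 in PRMT1-cKO, and its exon call was lost without PRMT1-cKO replicate 2 (edgeR adjusted p = 0.0865). Mrps28, the relative of bacterial S1, had 85.7 and 76.4 CPM of exon reads in WT against 44.6 and 39.1 in PRMT1-cKO, with the groups apart. The calls of Mrps28 were lost without WT replicate 1 in both measures (edgeR adjusted p = 0.381 in gene reads and 0.0995 in exon reads), in gene reads also without WT replicate 2 (0.166) and in exon reads also without PRMT1-cKO replicate 2 (0.0588), and 2 pseudogenes overlap the gene.

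Mrps9, the relative of bacterial uS9, differed most between the measures. Its exon reads were 103.5 and 112 CPM in WT against 36.5 and 15.6 CPM in PRMT1-cKO, from 64, 60, 27 and 10 reads (log2 change -2.01 ± 0.35, edgeR adjusted p = 0.000288). Its gene reads, 504, 357, 271 and 403 in the same order, are mostly intronic and did not pass (log2 change -0.52 ± 0.20). Exon and intron changes differed in 1 of 28 members with enough reads of both, 3.57%, near the 3.88% of all genes tested. It was Mrps9 (diffSpliceDGE, exon minus intron log2 change -1.53, adjusted p = 0.0206). That call was lost with a replicate block (adjusted p = 0.109) and when either WT heart (0.285 without replicate 1, 0.839 without replicate 2) or PRMT1-cKO replicate 2 (0.808) was left out. The exon change was below the intron change in 20 of the 28 members, with a median difference of -0.37 where the median of all genes was 0.18. Intron reads alone fell in 9 of 52 members and rose in 0, against 11.0% of all genes lower.

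The small subunit members that fell in exon reads alone were Mrps9, Mrps22, Mrps26, Mrps27 and Mrps31. Mrps31 had 199 and 203 CPM of exon reads in WT against 89.2 and 79.7 in PRMT1-cKO (log2 change -1.25 ± 0.21, edgeR adjusted p = 0.000205), while its gene reads just missed the threshold (adjusted p = 0.0517). Mrps26 had 12 and 9 exon reads in WT against 3 and 2 in PRMT1-cKO, the fewest of any member called in exon reads, and its call was lost without either PRMT1-cKO heart or WT replicate 2. The exon read call of Mrps22 was lost without PRMT1-cKO replicate 2 or either WT heart, and that of Mrps27 without WT replicate 1. Mrps14 fell in gene reads alone, not without WT replicate 2 or PRMT1-cKO replicate 2. Mrps16 and Mrps30, among the small subunit members with most exon reads per junction, did not pass. Mrps16 had 134 and 98.7 CPM of exon reads in WT against 94.6 and 49.98 in PRMT1-cKO, and Mrps30 had 145.5 and 181 in WT against 98.7 and 145.3 in PRMT1-cKO, so PRMT1-cKO replicate 2 is just under the lower WT heart.

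Mrps18a, Mrps18b and Mrps18c are 3 relatives of 1 bacterial protein, S18. In ribosome structures of pig and human the product of Mrps18a, like that of Mrps30, sits in the large subunit despite its name. Mrps18a had 2.48 and 2.16 CPM of gene reads in WT against 1.03 and 1.21 in PRMT1-cKO (log2 change -1.05 ± 0.32, edgeR adjusted p = 0.0217). It was not called with WT replicate 1 (adjusted p = 0.179) or PRMT1-cKO replicate 1 (0.0507) left out. Mrps18b and Mrps18c had log2 changes of -0.28 ± 0.38 and -0.76 ± 0.40 and did not pass. All 3 had at most 5 exon reads in a heart, Mrps18a 0 in all, so their spliced RNA could not be compared at this depth.

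Set side by side, 14 of 41 large subunit members and 5 of 24 small subunit members fell in gene reads, with medians of -0.68 and -0.52. In exon reads it was 16 of 24 and 8 of 15, with medians of -1.15 and -0.77. Over all genes tested 11.2% fell in gene reads and 18.7% in exon reads. In the fits without a WT heart fewer genes were called over the whole table too. Without WT replicate 1 or WT replicate 2 the small subunit count in gene reads was 3, and in exon reads it was 5 without WT replicate 1 or PRMT1-cKO replicate 2. Without WT replicate 2 the large subunit count in gene reads was 8. The balance of the summed exon reads shifted toward the small subunit. Large subunit exon reads were 2.42 and 2.46 times those of the small subunit in the WT hearts and 1.92 and 2.01 times in the PRMT1-cKO hearts. In gene reads the ratio was 1.32 and 1.43 in WT against 1.27 and 1.12 in PRMT1-cKO. The groups did not overlap in either measure, and the change of the log2 ratio was -0.31 with a spread within groups of 0.034 (pooled SD) in exon reads and -0.21 with a spread of 0.11 in gene reads. Without PRMT1-cKO replicate 2 the change in gene reads was -0.11, about the size of that spread.

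This shift rests on a single gene. Mrpl42 supplied 24.6% and 23.1% of all exon reads of the members in WT and 11.4% and 12.6% in PRMT1-cKO. Without Mrpl42 the large to small ratio of exon reads was 1.58 and 1.66 in WT against 1.59 and 1.63 in PRMT1-cKO, a log2 change of -0.01. In gene reads the change without it was 0.01. The remaining large subunit members then summed to 53.8% of WT in exon reads and the small subunit to 54.2%. In gene reads the shares were 67.1% and 66.7%. Mrpl42 was set aside after its values were seen, so this is a description with no test. Counting Mrps18a and Mrps30 with the large subunit, and leaving out Mrps36, which is known as a component of a citric acid cycle enzyme complex, gave a log2 change of -0.21 in exon reads and -0.19 in gene reads.

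**Figure D3:**
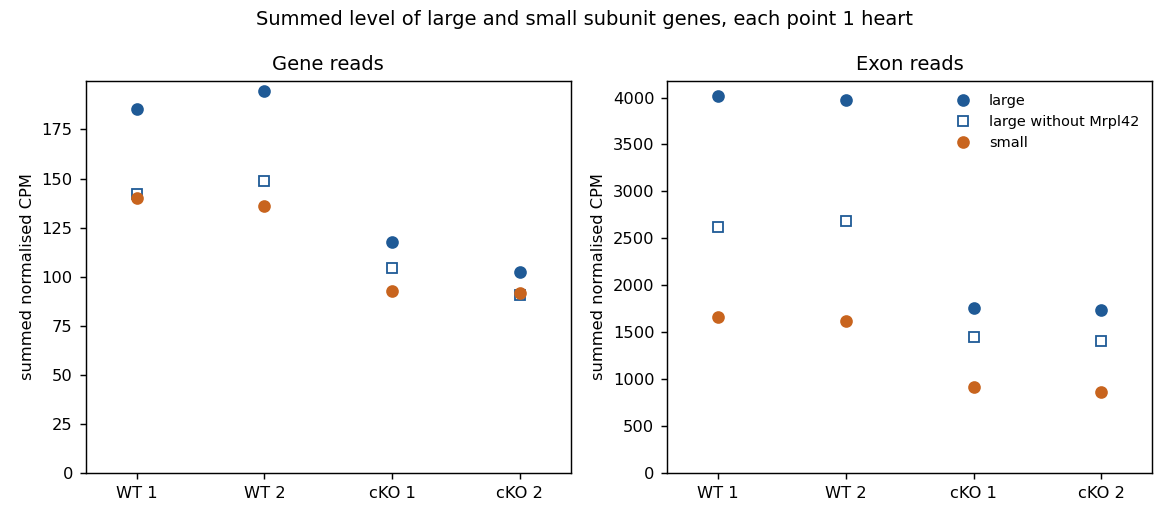
Summed normalised CPM of large subunit members (blue circles), the same without Mrpl42 (open blue squares) and small subunit members (orange circles), each point 1 heart, gene reads on the left and exon reads on the right. Both subunits are lower in both PRMT1-cKO hearts, and leaving out Mrpl42 brings the large subunit to the same relative level in PRMT1-cKO as the small, 53.8% and 54.2% of WT in exon reads.

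Genes that fell were found among members with and without a relative in bacteria. In gene reads 9 of 26 large subunit members with a bacterial counterpart fell and 5 of 15 without one. In the small subunit it was 3 of 16 and 2 of 8. In exon reads the counts were 10 of 13 and 6 of 11 for the large subunit and 2 of 7 and 6 of 8 for the small. Over all genes tested 11.2% fell in gene reads and 18.7% in exon reads, and the small subunit shares with a bacterial counterpart, 18.8% and 28.6%, stand closest to these. This grouping was made after the values were seen, and the differences between the groups were not tested.

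Exon reads were a smaller share of gene reads in members with more annotated transcripts, and the reason was not tested. In the 19 members with 1 annotated transcript, exon reads were 66.4% of the pooled gene reads. In the 14 members with 2 transcripts and any reads the share was 58.3%, and in the 42 with 3 or more it was 21.4%. Over all genes with at least 2 exons the pooled share was 25.1%, 8.83% and 4.84% in these classes, but the median share over genes went the other way, at 0.012%, 0.588% and 1.16%. Among members with 3 or more transcripts 11 of 43 had enough exon reads to test, against 16 of 19 with a single transcript. The 10 falls among those 16 make up a share of the members like that over all tested members, 62.5% against 61.5%, with a median log2 change of -0.76.

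**Figure D4:**
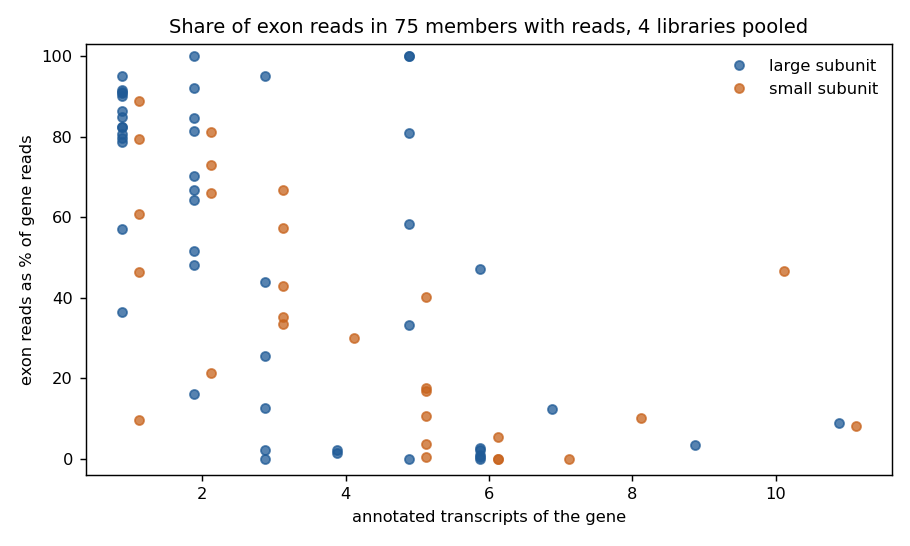
Exon reads as a percentage of gene reads, 4 libraries pooled, against the number of annotated transcripts, for the 75 members with any gene read, blue for the large and orange for the small subunit. The median is 82.4% for members with 1 transcript and 11.4% for those with 3 or more.

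Promoters are shown for Mrpl42, which had the largest share of the members' reads, for Mrpl45 and Mrpl9, which hold a motif of the nuclear respiratory factor NRF1, and for Mrpl3, which holds an ETS motif. NRF1 and the ETS factor GABP are known activators of nuclear genes for mitochondria. The sequences are the 150 bases directly upstream of the RefSeq start, from RefSeq on GRCm38.p6, given 5′ to 3′ on the strand of the gene. Capitals mark letters of the motifs below, of which the printed stretch of Mrpl42 holds none. Its longer window, counted below, holds the YY1 motif downstream of the start. They lie at chr10:95501950-95502099 on the minus strand for Mrpl42, and on the plus strand at chr11:97315566-97315715 for Mrpl45, chr3:94443186-94443335 for Mrpl9 and chr9:105053118-105053267 for Mrpl3.
Mrpl42: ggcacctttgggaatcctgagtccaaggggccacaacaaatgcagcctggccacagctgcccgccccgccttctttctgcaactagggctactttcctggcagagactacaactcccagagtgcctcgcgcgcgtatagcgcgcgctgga
Mrpl45: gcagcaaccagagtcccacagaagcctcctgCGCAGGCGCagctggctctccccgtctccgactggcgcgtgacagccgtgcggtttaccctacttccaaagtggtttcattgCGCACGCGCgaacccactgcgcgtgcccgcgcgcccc
Mrpl9: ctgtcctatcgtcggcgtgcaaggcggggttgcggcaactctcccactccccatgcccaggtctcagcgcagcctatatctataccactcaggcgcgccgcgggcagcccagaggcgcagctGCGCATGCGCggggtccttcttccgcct
Mrpl3: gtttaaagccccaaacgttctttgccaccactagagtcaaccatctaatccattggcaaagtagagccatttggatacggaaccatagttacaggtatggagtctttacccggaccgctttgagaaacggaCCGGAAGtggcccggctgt

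Motifs were counted on both strands in windows from 250 bases before to 50 after each RefSeq start, with 74 windows for the 68 members that matched by symbol and 32851 windows in all. The NRF1 motif GCGCNTGCG was in 24.3% of the members' windows and in 6.31% of all windows. The ETS motif CCGGAAG was in 33.8% and 8.86%, and the YY1 motif AAGATGGCG in 10.8% and 1.40%. The element of the oestrogen-related receptors, AAGGTCA, was in 5.41% and 4.72%, and the E-box CACGTG in 9.46% and 7.15%. Overlapping windows of Mrpl2 hold the same E-box and are counted separately. Counted by gene, the E-box was in 7.35% of the matched members and in 8.09% of all genes. NRF1 letters were in windows of 5 of the 23 matched members that fell in either measure and of 13 of the 45 others. ETS letters were in 8 of 23 and 17 of 45, YY1 letters in 4 of 23 and 4 of 45, and the oestrogen-related receptor letters in 0 of 23 and 4 of 45. The NRF1 letters and their reverse complement can overlap at 1 site, as in Mrpl9, a match is no evidence of binding, and no test was made.

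Some genes that work with the mitochondrial ribosome fell too. Over the 6 lists of such genes and their regulators, with the member Mrpl45 left out, 15 of 25 tested in exon reads fell. The share over all genes was 18.7%, and the difference from the members was not tested. Of its proteins with names outside the Mrp series 2 of 5 tested fell in gene reads, Ptcd3, an RNA-binding protein of the small subunit, and Gadd45gip1, a large subunit protein at the tunnel exit. Ptcd3 had 49.4 and 50.6 CPM of gene reads in WT against 24.7 and 23.8 in PRMT1-cKO (log2 change -1.04 ± 0.20, edgeR adjusted p = 0.000797). Gadd45gip1 had a log2 change of -1.66 ± 0.41 (edgeR adjusted p = 0.00516). Of the translation factors 2 of 12 fell in gene reads, 16.7% against 11.2% of all genes, and 3 of 3 in exon reads. The 2 were Taco1, an activator of translation of the cytochrome oxidase mRNA, at -1.03 ± 0.23, and Mrrf, the recycling factor, at -0.60 ± 0.20. The gene read call of Mrrf was lost with either WT heart left out. Its log2 change was then -0.59 without replicate 1 and -0.64 without replicate 2, and its exon reads fell under every alternative.

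Of 22 genes listed for ribosome assembly and rRNA processing 3 fell and 0 rose in gene reads, and 2 of 9 fell in exon reads. These shares, 13.6% and 22.2%, are near those of all genes tested, 11.2% and 18.7%. The 3 were Rpusd3, a pseudouridine synthase relative needed for the 16S RNA, at -1.96 ± 0.42, Lace1, an AAA ATPase, at -1.30 ± 0.21, and Tfb1m, the methylase of the 12S RNA, at -0.84 ± 0.25 (edgeR adjusted p = 0.329 without WT replicate 1). Rpusd3 and Lace1 had at most 1 exon read in a heart. Whether Lace1 takes part in ribosome assembly or rRNA processing was not checked, so its place in this list is uncertain. Of 14 genes of mitochondrial transcription and RNA stability 2 fell in gene reads, 14.3% and so also near the share of all genes, and 3 of 3 in exon reads. The 2 were Lrpprc, which stabilises mitochondrial mRNAs, at -1.20 ± 0.22, and Supv3l1, an RNA helicase, at -1.005 ± 0.25. The 4 genes of inner membrane insertion include the member Mrpl45, described above. Of these 4 genes 2 fell in gene reads, Mrpl45 and Oxa1l, and 3 of 3 in exon reads, against 11.2% and 18.7% of all genes tested. Oxa1l, which inserts new proteins into the inner membrane, fell in exon reads (log2 change -0.78 ± 0.17, edgeR adjusted p = 0.00154). Its gene reads passed narrowly (adjusted p = 0.0435), and not with WT replicate 1 left out (0.235), nor without WT replicate 2 (0.253) or without PRMT1-cKO replicate 2 (0.0743).

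Among 12 regulators of nuclear genes for mitochondria 6 fell and 1 rose in gene reads, where 11.2% of all genes tested fell and 11.5% rose. Ppargc1a, the coactivator PGC-1alpha, had 231 and 340 CPM in WT against 26.9 and 50.3 in PRMT1-cKO (log2 change -2.89 ± 0.32). Its relative Ppargc1b had 80.9 and 66.2 CPM in WT against 19.3 and 20.3 in PRMT1-cKO (log2 change -1.89 ± 0.22). Myc, a growth regulator, had 1 and 3 gene reads in WT against 19 and 14 in PRMT1-cKO, and with WT replicate 1 left out it was not called (edgeR adjusted p = 0.185). The other 4 that fell were Perm1, Esrra, Esrrb and Esrrg, with log2 changes from -1.60 to -0.72. Without WT replicate 1 Esrra, Esrrb and Esrrg did not pass, and without WT replicate 2 Esrra and Esrrb did not.

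The cytosolic ribosome and the respiratory chain had median changes on either side of the members. Of 66 cytosolic ribosomal protein genes tested in gene reads 7 rose and 1 fell, with a median log2 change of 0.44, and in exon reads 13 rose and 1 fell of 37. Of all genes tested 11.5% rose in gene reads, near the share of these genes, and 17.6% rose in exon reads. Many of these genes have near-identical pseudogene copies, so their reads are uncertain. Of 83 tested nuclear genes for subunits of the respiratory chain and ATP synthase, 63 were called lower and 0 higher in gene reads with a median of -1.21. In exon reads 57 of 64 fell with a median of -1.48. Over all genes tested 11.2% fell in gene reads and 18.7% in exon reads. The members' medians of -0.55 and -0.95 lie between these, and the differences between the lists were not tested.

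**Figure D5:**
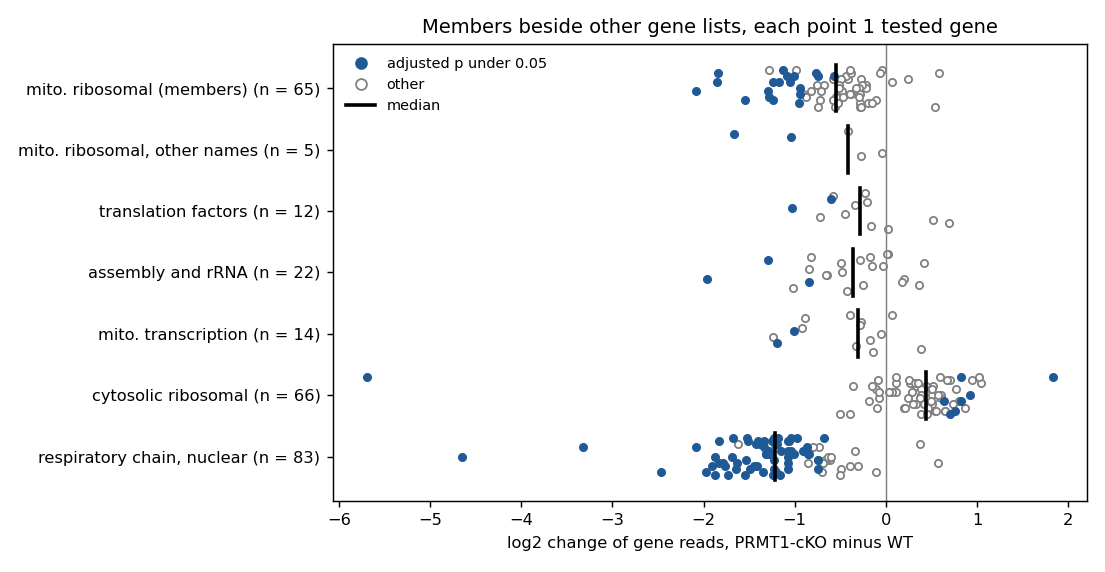
Log2 change of gene reads, PRMT1-cKO minus WT, of each tested gene in 7 lists, filled where the edgeR adjusted p was under 0.05, with the median of each list as a black bar. The median is -0.55 for the 65 members, 0.44 for the 66 cytosolic ribosomal protein genes and -1.21 for the 83 nuclear respiratory chain genes.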

How the data were processed

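The deposited table holds counts of gene reads, exon reads and intron reads per gene and library, and the authors' RPKM, which equals exon reads scaled by exon length and total gene reads when recomputed. Per the file headers, the authors ran an EDGE test with tagwise dispersions. Its corrected p-value is deposited, as is its fold change, a signed score. Other deposited columns used, such as exon number and annotated transcripts, are the authors' annotation. GRCm38 is named in the submitters' processing notes, and the sources used here do not give the aligner, the counting program, strand use or duplicate removal. Per the labels' protocols, the library kit was SOLiD total RNA-Seq. Starts are printed 1-based. Replicates are labelled as separate samples, and p-values measure the spread between these hearts. A further 63 per-library columns were not used.

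Gene, exon and intron reads were each tested over the whole table with edgeR 4.0.16 in R 4.3.3 (TMM, filterByExpr with minimum count 10 and minimum total 15, glmQLFit, then glmQLFTest for genotype with no other term; two-sided; adjusted p under 0.05 by Benjamini-Hochberg). The exon and intron changes of each gene were set against each other by diffSpliceDGE with Simes p-values. A standard error is the log2 change over the root of its F statistic. The steps were tested on simulated data. Alternatives were RLE factors, total counts alone, DESeq2 1.42.0, other filters, a replicate block, each heart left out, and subsets of members. Same-numbered hearts deviated with r = -0.12 in gene reads and -0.01 in exon reads.

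Named members were, per subunit, the 6 that fell most in gene reads with a mean of at least 2 CPM, up to 3 that rose, the 3 with most exon reads per junction, members with opposite or exon-intron calls, and the Mrps18 relatives, with up to 3 called genes per pathway list. Others were named after their values were seen. Members and lists were chosen with earlier results of these data known. Since strand use is not stated, reads where genes overlap are uncertain, and 36 of 77 members overlap another gene of the table.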

Additional observations from a re-analysis of the deposited data

How the results depend on the processing

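With DESeq2 10 members fell in gene reads, 8 large and 2 small, and 14 in exon reads, 10 large and 4 small. Scaled by library total alone, gene reads gave 8, 6 and 2, and Mrpl9, Mrpl32, Mrps9, Mrps16, Mrps18b, Mrps22, Mrps27 and Mrps30 turned to log2 changes of 0.0226, 0.1011, 0.0077, 0.0001, 0.2311, 0.1819, 0.1116 and 0.2364, none of them passing; this scaling shifts all genes upward. Leaving out genes without annotated exon gave 8 small subunit members in gene reads. Without members that overlap another gene 10 fell in gene reads and 13 in exon reads, and among members with 1 annotated transcript, a subset chosen after the data were seen, 6 and 10, since fewer members were tested. Leaving out each heart in turn gave 11 to 26 in gene reads (large 8 to 19, small 3 to 7), 17 to 22 in exon reads (large 11 to 14, small 5 to 8), 0 to 1 for exon against intron reads, a change of the log2 ratio of large to small from -0.30 to -0.11, and 11 to 21 called genes in the pathway lists, where 17 of all lists but the comparison lists were called with 4 hearts, 11 of them without WT replicate 1. Without Mrpl42 that ratio changed by 0.0056. RLE factors, a minimum count of 30 and no filter stayed within 1.5 times of each count of members lower in gene reads and exon reads.

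The replicate number shared between groups is only a number in the labels. With a replicate block 18 members fell in gene reads, 23 in exon reads and 0 differed between exon and intron reads. A crossed pairing, added after the negative correlation in gene reads was seen, gave 29 in gene reads, 9 of them small subunit.

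Depth limits the exon reads: 38 of 77 members had too few to test.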
